A study of Homo sapiens with 10 samples.

Results

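Integrins are the cell's receptors for extracellular matrix, and each receptor is a pair of 1 alpha and 1 beta subunit. Laminins are the large matrix proteins of basement membranes, and each secreted molecule joins an alpha, a beta and a gamma chain. Integrins with the beta1 subunit carry most of the contact of mesenchymal cells with matrix, those with the alphaV subunit recognise RGD-containing ligands such as fibronectin and vitronectin, and those with the beta2 subunit are typical of leukocytes. The genes of both families were followed in U2OS cells, an established human osteosarcoma line, after siRNA depletion of the histone variant isoforms H2A.Z.1 (encoded by H2AFZ) and H2A.Z.2 (encoded by H2AFV). Members were taken by symbol, as all ITGA, ITGB, LAMA, LAMB and LAMC genes of the count table, which gave 38 of the 23089 genes: 18 integrin alpha genes, 8 integrin beta genes and 12 laminin genes. The rule used no measured value.

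RNA was prepared 3 days after transfection from 5 groups of 2 libraries each: siCtrl 3, siCtrl 4, siH2A.Z1, siH2A.Z2, and siH2A.Z1 and siH2A.Z2 together. All groups were transfected, the controls with 1 of 2 control siRNAs. Each depletion was set against the 4 control libraries to ask how the loss of that isoform, or of both, changes mRNA levels. The 3 comparisons share these control libraries and so are not independent. Per the study's methods the samples were transfected side by side, so p-values measure the spread between parallel samples of 1 cell line. Where both control siRNAs form 1 group, this spread also holds the difference between them. In bulk RNA, a change in the number of cells of a kind and a change of RNA per cell cannot be told apart.

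Total counts per library ranged from 16716990 to 26946836. The levels of mesenchymal and osteoblast-lineage markers summed to between 3823 and 6057 CPM (counts scaled to a common library size with TMM factors), with VIM, SPARC and COL1A1 between 373 and 3548 CPM and COL1A2 at 0.19 to 1.25 CPM. Leukocyte markers summed to 0.195 to 1.61 CPM, endothelial markers to 7.35 to 10.9 CPM and epithelial markers to 2.80 to 7.73 CPM, while CD3E, a T cell marker, and GATA1, an erythroid marker, did not exceed 0.0445 CPM in any library. For several single markers, chosen after their values were seen, the libraries of H2A.Z.1 and combined depletion lay outside the range of the controls. Markers of the same list went in both directions. VIM had 2395 to 3548 CPM in the controls, 1558 and 1501 CPM upon H2A.Z.1 depletion and 1768 and 1808 CPM upon combined depletion. ALPL, alkaline phosphatase of osteoblasts, had 2.11 to 7.35 CPM in the controls, 0.640 and 0.854 CPM upon H2A.Z.1 depletion and 0.492 and 0.402 CPM upon combined depletion. CDH1, the epithelial cadherin, had 1.94 to 3.98 CPM in the controls and 0.373 to 0.715 CPM in the 4 libraries with H2A.Z.1 depleted, whereas TEK, an endothelial receptor, had 1.09 to 2.06 CPM in the controls and 4.25 to 5.71 CPM in those 4 libraries. The part of other cell types and of the state of the cells in the results was not tested.

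The targeted gene H2AFZ had 204 to 279 CPM in the 4 control libraries. Its 2 H2A.Z.1-depleted libraries held 19.6 and 19.1 CPM (log2 fold change ± SE, −3.67 ± 0.19), and those of the combined depletion 22.5 and 22.1 CPM (−3.46 ± 0.18). H2AFV had 143 to 248 CPM in the control libraries, 63.8 and 65.4 CPM after its own depletion and 80.4 and 71.0 CPM in the combined depletion. Its change of −1.59 ± 0.28 upon H2A.Z.2 depletion did not pass the test against the pooled controls (edgeR, adjusted p = 0.0754), although both libraries lay below all 4 controls. H2AFV was itself lower with siCtrl 4 than with siCtrl 3, by −0.75 on the log2 scale (adjusted p = 1.32e-05).

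The siRNAs are shown because members can share short sequences with them. The H2A.Z.2 siRNA was taken as the entry of that name in the study's list, and which listed control siRNA is siCtrl 3 or siCtrl 4 is not given in the sources used here. Each siRNA is given as its guide strand, the reverse complement of the sense strand in the study's list, with the seed (guide positions 2 to 8) in capitals.
siRNA against H2A.Z.1, guide: cUCAAUCAaaacccacuac
siRNA against H2A.Z.2, guide: uCAACACAcaacugucacc
On hg38 with the GENCODE v44 annotation, the H2A.Z.1 siRNA matched exon 5 of H2AFZ over its full length (chr4:99948214-99948232, minus strand, 3′UTR), and the H2A.Z.2 siRNA matched exon 5 of H2AFV (chr7:44834295-44834313, minus strand, 3′UTR). The 7-letter complement of the H2A.Z.1 seed (TGATTGA, transcript strand) was present in the 3′UTR of 4 of the 38 members, ITGA4, ITGAL, ITGAV and ITGB8, and in 10.3% of all 17043 3′UTRs searched. That of the H2A.Z.2 seed (TGTGTTG) was present in 5 members, ITGA1, ITGA6, ITGB3, ITGB6 and LAMC3, and in 17.8% of all 3′UTRs. The complements of the seeds of the 2 listed control siRNAs were present in 2.85% and 6.23% of all 3′UTRs, and in ITGB8 (both) and ITGA4 (the second). Of the members with the H2A.Z.1 match, ITGA4 and ITGAV lay below all controls upon that depletion (27.3% of all genes tested did). ITGB8 lay above them (27% of all genes tested did). Of the members with the H2A.Z.2 match, ITGA6 lay above all controls upon H2A.Z.2 depletion (16.4% of all genes tested did). ITGA1, ITGB3, ITGB6 and LAMC3 overlapped the controls there. Windows are given for ITGAV, ITGB8 and ITGB3, with the matching letters in capitals.
ITGAV, H2A.Z.1 seed (chr2:186678848-186678872, plus strand, exon 30): ttttaaaaaTGATTGAaatttatct
ITGB8, H2A.Z.1 seed (chr7:20415554-20415578, plus strand, exon 14): atataactcTGATTGActactaact
ITGB3, H2A.Z.2 seed (chr17:47310386-47310410, plus strand, exon 15): ttatgtgtgTGTGTTGtgtgtggga
A match describes letters only, and the part of these matches in any result was not tested.

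Of the 38 members, 36 had 20 or more counts summed over the 10 libraries. ITGA8 and ITGAL did not, and no level is given for them. Per length (RPKM, CPM divided by the GENCODE exon length in kb), the highest mean levels over the 4 controls belonged to LAMB3, a chain of the epithelial laminin-332, at 89.4 RPKM, and to ITGA3, the alpha subunit of a laminin receptor, at 85.8 RPKM. ITGB5 (58.9), ITGA2 (54.3), ITGB1 (49.4), LAMC1 (44.6), ITGA6 (33.6), ITGA5 (33.2) and LAMB2 (23.7 RPKM) were among those that followed. LAMA3, the alpha chain that joins LAMB3 in laminin-332, had 0.0333 RPKM. Among the laminin alpha chains LAMA1 (16.0 RPKM) and LAMA5 (9.75 RPKM) were the highest, LAMA2 had 0.422 RPKM and LAMA4 0.0150 RPKM. ITGB4, the partner of the alpha6 subunit in hemidesmosomes, had 1.14 RPKM. The beta2 subunit gene ITGB2 had 0.558 RPKM, ITGAX 5.21 RPKM and ITGAM 0.362 RPKM, while PTPRC, the pan-leukocyte marker, did not exceed 1.21 CPM in any library.

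**Figure D1:**
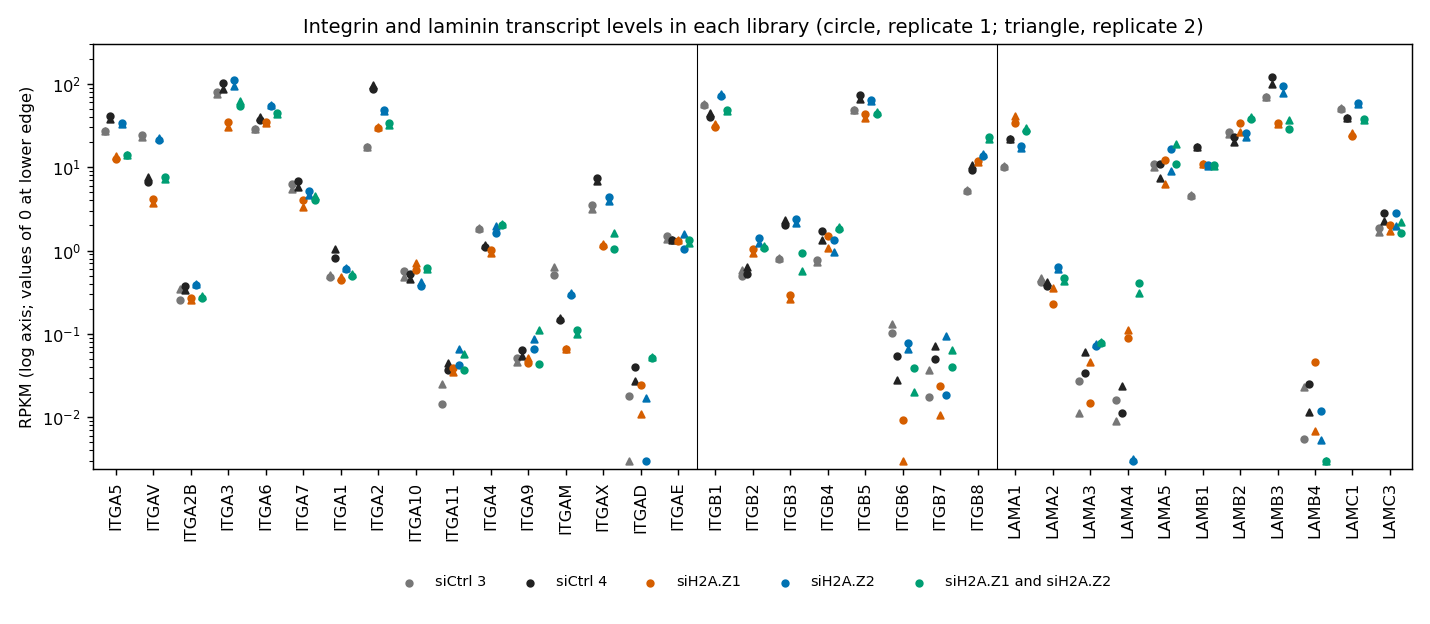
RPKM of members with 20 or more counts in each of the 10 libraries, on a log axis, with integrin alpha, integrin beta and laminin genes separated by lines, colours for the 5 groups, and circles and triangles for the 2 replicates. LAMB3, ITGA3 and ITGB5 lie near the top, and LAMA4 runs from 0 in 1 library of the H2A.Z.2 depletion up to a mean of 0.358 RPKM in the combined depletion.

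The 2 control siRNAs gave different levels for many members. In a fit of all 10 libraries, 33 members were tested and 20 differed between siCtrl 4 and siCtrl 3 (60.6%, against 34.5% of all 16486 genes tested; called at an edgeR adjusted p under 0.05 and a fold above 1.25). Of these, 13 were higher with siCtrl 4 (17.2% of all genes were) and 7 were lower (17.3% of all genes were). ITGA2, a collagen-binding alpha subunit, had 136 and 137 CPM with siCtrl 3 and 678 and 763 CPM with siCtrl 4, a log2 difference of 2.40 ± 0.07. LAMB1 had 83.6 and 87.2 CPM with siCtrl 3 and 323 and 320 CPM with siCtrl 4, a log2 difference of 1.91 ± 0.06. Both genes were thus several-fold higher with siCtrl 4 in both of its libraries.

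ITGAV, the alphaV subunit, went the other way, with 465 and 444 CPM with siCtrl 3 and 130 and 147 CPM with siCtrl 4, a log2 difference of −1.71 ± 0.08. The other members lower with siCtrl 4 included ITGA4 (−0.70), ITGAM (−1.89), ITGB1 (−0.40), ITGB6 (−1.48) and LAMC1 (−0.37), and the other members higher with it were ITGA1 (0.93), ITGA5 (0.56), ITGA6 (0.41), ITGAX (1.07), ITGB3 (1.43), ITGB4 (1.02), ITGB5 (0.51), ITGB8 (0.92), LAMA1 (1.10), LAMB3 (0.66) and LAMC3 (0.52). For these 20 genes the pooled control group is a mixture of levels, so each depletion was also set against each control siRNA alone.

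H2A.Z.1 depletion was accompanied by lower mRNA of integrin alpha3, alpha5, beta1 and beta3 and of the laminin chains LAMB3 and LAMC1. Higher mRNA was called for ITGB2 and LAMA1, and for LAMA4, which passed the low-count filter through the depleted libraries. The calls of ITGB1 and LAMA1 were lost with the replicate number as a block in the fit. Of the 31 members tested, 10 fell, where 15.7% of all 16112 genes tested did, and 3 rose, where 12.2% of all genes did. The other 18 did not pass the edgeR test, and DESeq2 called 12 as lower, with ITGAV and ITGAM added, and 3 as higher. The median log2 fold change of the tested members was −0.53, beside −0.02 for all genes. By family, 4 of 13 integrin alpha genes fell and none rose, 3 of 7 integrin beta genes fell and 1 rose, and 3 of 11 laminin genes fell and 2 rose. Both H2A.Z.1 libraries lay below all 4 controls for 15 members (27.3% of all genes) and above them for 5 members (27% of all genes).

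Among alpha subunits, ITGA3 had 778, 736, 992 and 858 CPM in the controls and 344 and 296 CPM upon H2A.Z.1 depletion. All depleted libraries lay below all controls, and the log2 fold change was −1.40 ± 0.15 (edgeR, adjusted p = 0.00132). ITGA5, the alpha subunit of the classical fibronectin receptor, had 198, 199, 301 and 283 CPM in the controls and 92.4 and 101 CPM in the depleted libraries, again without overlap (log2 fold change −1.34, adjusted p = 0.00528). ITGA7, whose product binds laminin in muscle, had 57.6, 49.1, 62.6 and 52.3 CPM in the controls and 37.0 and 30.4 CPM upon depletion (log2 fold change −0.72, adjusted p = 0.0120). ITGA6, another laminin-binding subunit, lay within the range of the controls, with 235 and 227 CPM beside 191 to 264 CPM in the controls and a log2 fold change of 0.04 (95% interval −0.33 to 0.41).

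ITGAX, encoding the alphaX subunit known from leukocytes, fell to 7.95 and 8.59 CPM in the depleted libraries, where the siCtrl 3 libraries had 25.0 and 22.6 CPM and the siCtrl 4 libraries 52.0 and 47.9 CPM (log2 fold change −2.16, adjusted p = 0.0102). ITGAV stood at 81.2 and 72.1 CPM upon H2A.Z.1 depletion, below all 4 controls, with a log2 fold change of −1.96 (95% interval −3.43 to −0.49) that missed the threshold against the pooled controls by edgeR (adjusted p = 0.0548) but not by DESeq2 (adjusted p = 0.00106). Against siCtrl 3 alone its log2 fold change was −2.57 and against siCtrl 4 alone −0.85, and both of these passed. ITGAM behaved alike in this respect, with 0.846 to 3.57 CPM in the controls and 0.373 and 0.380 CPM upon depletion (log2 fold change −2.43, adjusted p = 0.0626 by edgeR and 0.00732 by DESeq2; −3.08 and −1.19 against the single control siRNAs, both passed).

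Among beta subunits, ITGB1, the shared partner of most matrix-binding alpha subunits, had 815, 821, 589 and 653 CPM in the controls and 446 and 475 CPM upon H2A.Z.1 depletion. The groups did not overlap, and the log2 fold change was −0.65 (95% interval −1.04 to −0.26, adjusted p = 0.0274). ITGB3, the beta subunit of the vitronectin receptor, fell to 2.03 and 1.80 CPM, where the siCtrl 3 libraries had 5.47 and 5.63 CPM and the siCtrl 4 libraries 13.9 and 15.9 CPM (log2 fold change −2.42, adjusted p = 0.0211). ITGB6 was called as lower (adjusted p = 0.0471) on few counts, 15, 14, 7 and 4 in the controls and 1 and 0 in the depleted libraries, for a ratio of controls to depleted of 17.4 with an exact 95% counting interval of 2.96 to 706. It passed the filter on low counts through the control libraries, so this call is not independent of that filter. ITGB2 rose from 3.63, 4.22, 3.83 and 4.60 CPM in the controls to 7.57 and 6.74 CPM (log2 fold change 0.81, adjusted p = 0.0162).

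Among the laminin chains, LAMB3 had 325, 320, 553 and 464 CPM in the controls and 157 and 153 CPM upon depletion (log2 fold change −1.43, adjusted p = 0.00761). LAMA3 had at most 1.15 CPM in any library and a log2 fold change of −0.15 (95% interval −1.82 to 1.52), an interval too wide to place it with or apart from LAMB3.

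LAMC1, the gamma chain of most laminins, had 417, 432, 332 and 326 CPM in the controls and 198 and 216 CPM upon H2A.Z.1 depletion (log2 fold change −0.87, adjusted p = 0.00848). LAMA1, the alpha chain of the embryonic laminin-111, rose to 532 and 652 CPM from 158, 165, 341 and 349 CPM in the controls (log2 fold change 1.22, adjusted p = 0.0413). LAMA4, an alpha chain of mesenchymal and vascular laminins, had 5, 2, 3 and 7 counts in the controls and 20 and 28 counts upon H2A.Z.1 depletion (log2 fold change 2.66, adjusted p = 0.00513). LAMA4 passed the filter on low counts through the depleted libraries, so its calls here and below are not independent of that filter.

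Of the 13 calls, 12 were also called against siCtrl 3 alone and against siCtrl 4 alone in the same direction, and ITGB6 was not tested against siCtrl 4. ITGAM and ITGAV were added by that criterion, which gave 11 lower and 3 higher members (17.2% and 14.4% of all 15480 genes tested both times). ITGA2 and LAMB1 were called in opposite directions by the 2 control siRNAs, at 0.80 and −1.59 for ITGA2 and at 1.25 and −0.66 for LAMB1 (siCtrl 3, then siCtrl 4). When 1 of the 2 H2A.Z.1 libraries was left out, with the lone library assumed to vary like the controls, 2 members (without replicate 1) and 1 member (without replicate 2) were still called, ITGA3 among them in both cases. The calls of ITGB1 (without siCtrl 3 replicate 1, adjusted p = 0.0501), LAMA1 (without siCtrl 3 replicate 1 or 2, adjusted p = 0.0548 and 0.0566) and ITGB6 (without siCtrl 4 replicate 1, adjusted p = 0.0587) also ended without single control libraries.

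**Figure D2:**
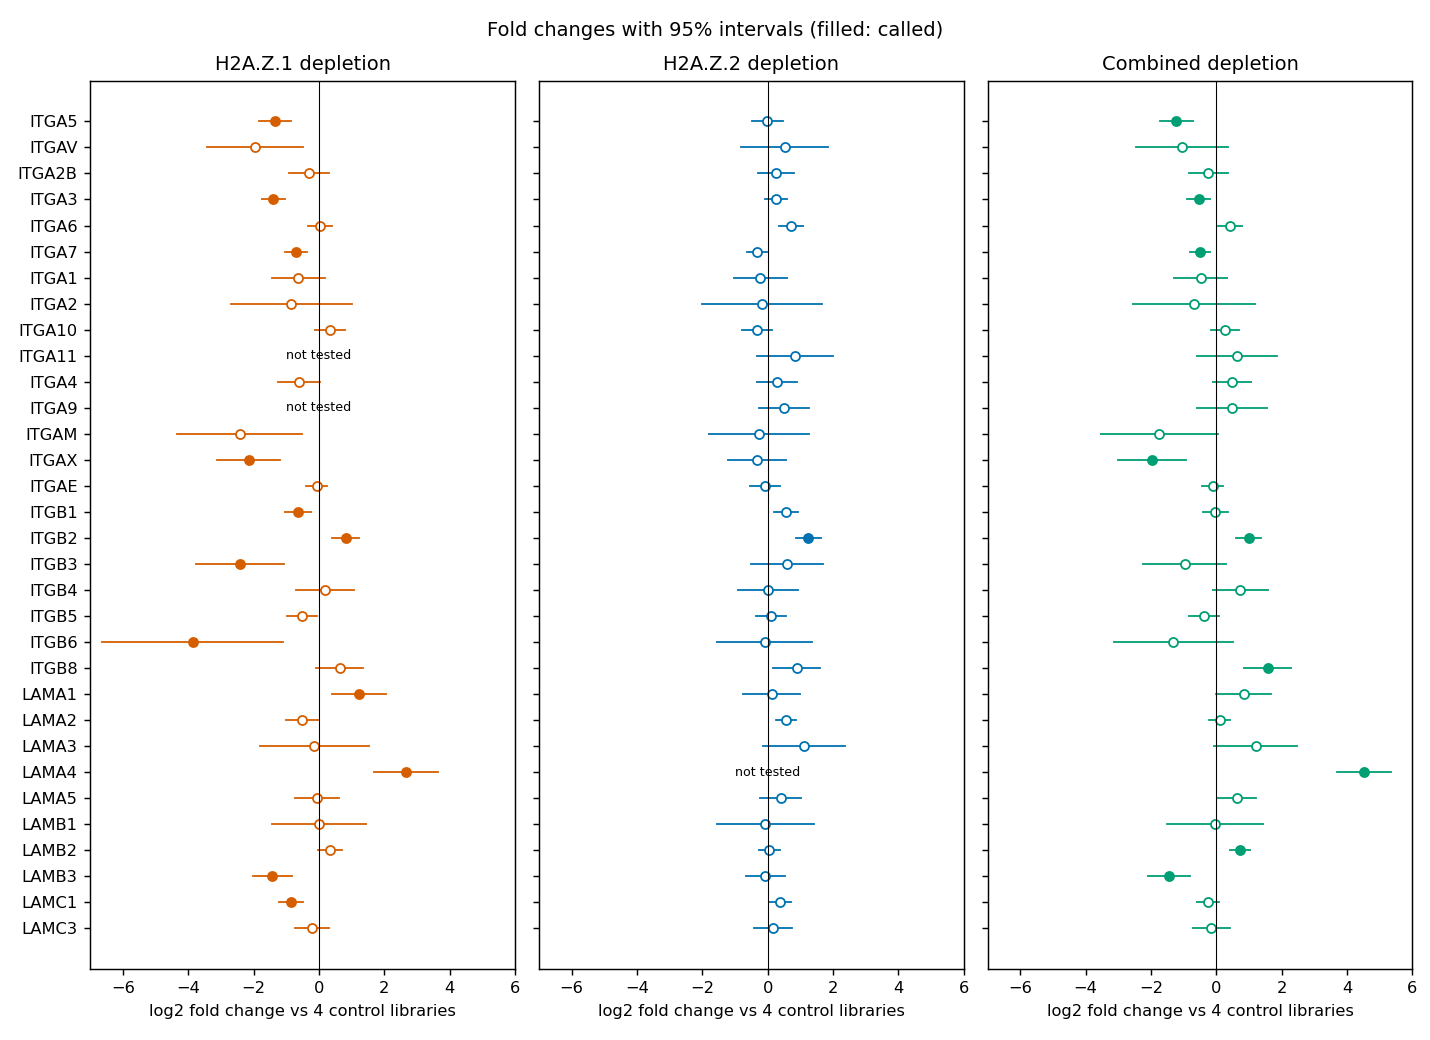
Log2 fold change (x axis) with its 95% interval for members tested upon H2A.Z.1, H2A.Z.2 and combined depletion against the 4 control libraries, with filled symbols for called members. Filled symbols lie mostly left of 0 upon H2A.Z.1 depletion, ITGB2 is the filled symbol upon H2A.Z.2 depletion, and combined depletion has 4 filled symbols right of 0. LAMA4 was not tested upon H2A.Z.2 depletion, nor ITGA9 and ITGA11 upon H2A.Z.1 depletion.

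H2A.Z.2 depletion gave an edgeR call against the pooled controls for ITGB2 alone. Of the 32 members tested, 1 rose (0.605% of all 16188 genes tested did) and 0 fell (0.179% of all genes did). DESeq2 called 3 as higher, ITGA6, ITGB2 and LAMA2, and 0 as lower, and 7 members had an unadjusted edgeR p under 0.05. ITGB2 had 10.4 and 8.87 CPM upon H2A.Z.2 depletion beside 3.63 to 4.60 CPM in the controls, with a log2 fold change of 1.24 (95% interval 0.85 to 1.63, adjusted p = 0.0359). That call was lost when any 1 of the 6 libraries was left out (edgeR, adjusted p between 0.0878 and 0.494), although the log2 fold change stayed between 1.12 and 1.33. Both libraries lay above all controls for 9 members (16.4% of all genes) and below them for 2 members (12.3% of all genes). The median log2 fold change of the members was 0.14, beside −0.00 for all genes.

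Set against each control siRNA alone, 5 members were called as higher both times upon H2A.Z.2 depletion (3.87% of all 15675 genes tested both times were) and 0 as lower (1.67% were). The 5 were ITGA6 (0.94 and 0.53), ITGB1 (0.39 and 0.79), ITGB2 (1.30 and 1.19), ITGB8 (1.41 and 0.50) and LAMA2 (0.48 and 0.64, siCtrl 3 then siCtrl 4). ITGB1 had 1038 and 1099 CPM upon H2A.Z.2 depletion, above its highest control of 821 CPM. Members with opposite calls by the control siRNAs included ITGA2, ITGAM and LAMB1. LAMA4 had 0 counts and 1 count upon H2A.Z.2 depletion beside 17 counts over the 4 controls, a ratio of controls to depleted of 9.41 with an exact 95% counting interval of 1.47 to 393, and it was not tested because of its low counts.

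Combined depletion changed 10 of the 33 members tested. LAMA4, LAMB2, ITGB8 and ITGB2 rose (4 members, where 7.77% of all 16184 genes tested did), and 6 members fell, ITGA3, ITGA5, ITGA7, ITGAX and LAMB3 among them (9.35% of all genes did). The median log2 fold change was −0.11, beside −0.01 for all genes. Both libraries lay above all controls for 11 members (24.2% of all genes) and below them for 9 (24.8% of all genes).

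LAMA4 had 110 and 64 counts upon combined depletion, or 4.92 and 3.67 CPM, beside 0.108 to 0.283 CPM in the controls. Its log2 fold change of 4.51 (95% interval 3.69 to 5.33, adjusted p = 0.00146) was the largest of any member, on a level of 0.358 RPKM that stayed below that of every other laminin alpha chain except LAMA3 in the same libraries. ITGB8, whose product pairs with alphaV and activates latent TGF-beta, rose to 349 and 331 CPM from 79.0, 80.6, 141 and 161 CPM in the controls (log2 fold change 1.57, adjusted p = 0.0172). LAMB2, the beta chain of laminins at muscle and kidney basement membranes, had 261 and 276 CPM beside 181, 174, 160 and 136 CPM in the controls (log2 fold change 0.73, adjusted p = 0.0132). ITGB2 had 7.78 and 8.21 CPM (log2 fold change 0.98, adjusted p = 0.0113).

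ITGA5 had 104 CPM in both libraries of the combined depletion (log2 fold change −1.22, adjusted p = 0.0128). LAMB3 stood at 133 and 170 CPM (log2 fold change −1.44, adjusted p = 0.0157) and ITGAX at 7.33 and 11.4 CPM (−1.97, adjusted p = 0.0272). None of these libraries overlapped the controls. ITGA3, at 527 and 617 CPM, and ITGA7, at 36.9 and 41.3 CPM, passed narrowly (log2 fold changes −0.55 and −0.49, adjusted p = 0.0441 and 0.0443). Both of these calls were lost with upper-quartile scaling (adjusted p = 0.0529 and 0.0565) and with library size alone (adjusted p = 0.0658 and 0.0662). ITGB1, at 710 and 690 CPM, was within the range of the controls (log2 fold change −0.03, 95% interval −0.40 to 0.34).

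Of the 10 calls, all were made in the same direction against each control siRNA alone, and LAMA1 (1.47 and 0.39) and LAMA5 (0.51 and 0.73) were added as higher. That criterion gave 6 higher and 6 lower members, where 11% and 12.4% of all 15570 genes tested both times were called. LAMA5 libraries disagreed within groups, with 176 and 89.8 CPM upon H2A.Z.1 depletion and 155 and 269 CPM upon combined depletion. Without 1 of the 2 libraries of the combined depletion, 1 member was still called, LAMA4 in both cases. The ITGAX call also ended without siCtrl 4 replicate 2 (edgeR, adjusted p = 0.0582), and those of ITGA3 and ITGA7 without siCtrl 3 replicate 1 or either siCtrl 4 library.

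**Figure D3:**
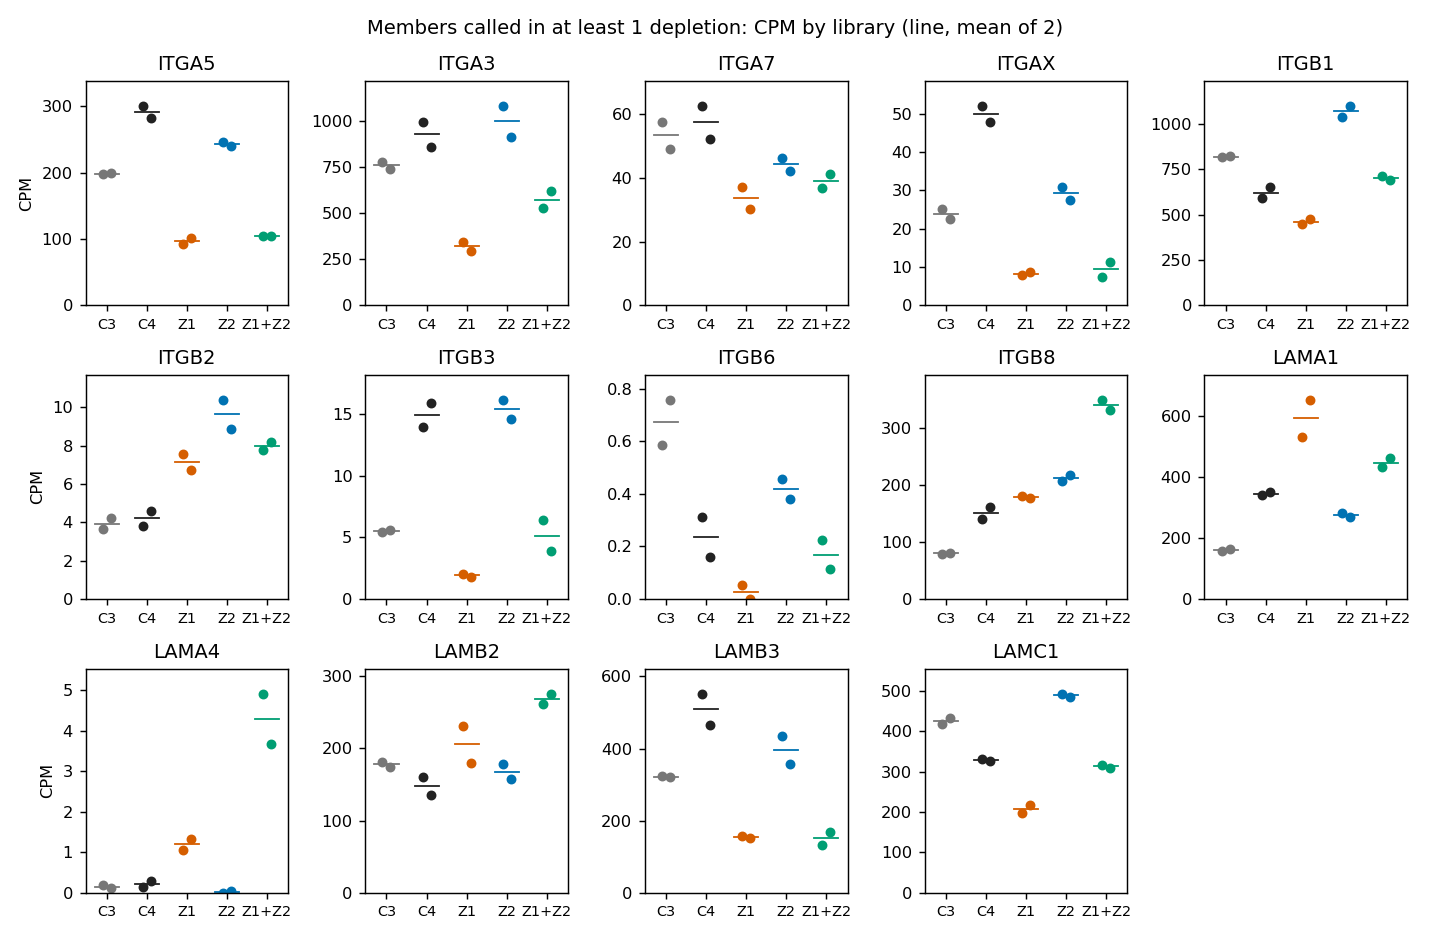
CPM in each library (points) and the mean of 2 (line) for members called in at least 1 depletion, with C3 and C4 for the control siRNAs, Z1, Z2 and Z1+Z2 for the depletions, and each y axis starting at 0. ITGA5, ITGAX and LAMB3 are low in Z1 and Z1+Z2, ITGB8 and LAMA4 are highest in Z1+Z2, and ITGAX, ITGB3 and LAMA1 differ between C3 and C4.

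Direct contrasts of the depletions came from a fit in which both control siRNAs formed 1 group, so the difference between them entered the spread (SE of the H2A.Z.1 against H2A.Z.2 contrast 0.76 for ITGA2 and 0.61 for LAMB1). The counts with the control siRNAs as separate groups, a fit chosen after seeing the data, are given beside them. H2A.Z.1 depletion gave lower levels than H2A.Z.2 depletion for 14 of 33 members (18.4% of all 16486 genes were lower) and higher levels for 3 (13.9% of all genes were higher). With separate control groups 20 were lower and 3 higher (26.6% and 21.4% of all genes). The lower members included ITGA3 (log2 difference −1.64), ITGA4 (−0.90), ITGA5 (−1.33), ITGA6 (−0.67), ITGAV (−2.46), ITGAX (−1.82), ITGB1 (−1.21), ITGB3 (−3.01), ITGB5 (−0.62), LAMA2 (−1.07), LAMB3 (−1.35) and LAMC1 (−1.24), and ITGB6 on 1 count against 21 counts, a ratio of H2A.Z.2 to H2A.Z.1 depletion of 16.5 (exact 95% counting interval 2.66 to 684). The higher members were ITGA10 (0.67), LAMA1 (1.11) and LAMA4, which had 48 counts against 1 count and a ratio of 60.9 (exact 95% counting interval 10.4 to 2456). ITGAV is a member whose difference was clear here, with 81.2 and 72.1 CPM beside 411 and 435 CPM (edgeR, adjusted p = 0.0118). In place of these 17 calls, 10 and 9 members were called without siH2A.Z1 replicate 1 or 2, and 11 without siH2A.Z2 replicate 2.

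The combined depletion exceeded the H2A.Z.1 depletion for 2 members (2.64% of all genes were higher) and was lower for 0 (1.15% of all genes were lower). By DESeq2 5 were higher and 0 lower, and 10 members had an unadjusted edgeR p under 0.05. ITGA3 was higher by 0.84 ± 0.16 on the log2 scale (adjusted p = 0.0245) and LAMA4 by 1.84 ± 0.37 (adjusted p = 0.0277). Both calls ended when either library of either depletion was left out. ITGB1 (0.60, adjusted p = 0.0676) and LAMC1 (0.59, adjusted p = 0.0577) did not pass by edgeR and passed by DESeq2 (adjusted p = 0.0164 and 0.00939). With separate control groups 12 members were higher (11.9% of all genes), ITGA3, LAMA4, ITGA4, ITGAV, ITGB1, ITGB3, ITGB8 and LAMC1 among them, and LAMA1 was lower (−0.41; 7.49% of all genes were lower). For LAMB3 (−0.03, 95% interval −0.61 to 0.55) and ITGA5 (0.11, 95% interval −0.35 to 0.56) no difference between the combined and the H2A.Z.1 depletion was detectable.

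Against the H2A.Z.2 depletion, the combined depletion was lower for 7 members (9.05% of all genes were lower), among them ITGA3, ITGA5, ITGAX, ITGB1, LAMB3 and LAMC1 with log2 differences of −0.61 to −1.65, and higher for 2 (4.77% of all genes were higher), LAMB2 (0.68) and LAMA4. LAMA4 had 174 counts against 1 count, a ratio of 221 (exact 95% counting interval 39.1 to 8778). With separate control groups 13 were lower and 6 higher (18.3% and 12.6% of all genes). In place of these 9 calls, 2 and 4 members were called without siH2A.Z2 replicate 1 or 2, and 1 and 3 without replicate 1 or 2 of the combined depletion. A departure from the sum of the single effects was called for 0 of 33 members by edgeR (0.14% of all genes were called), where 5 members had an unadjusted p under 0.05. LAMA4 had a departure of 4.74 on the log2 scale (edgeR, adjusted p = 0.0849). Its size rests on 1 count upon H2A.Z.2 depletion and 17 counts over the controls and is poorly determined. LAMA4 also passed the low-count filter through the libraries where it is high. For ITGB2 the departure was −1.08 (edgeR, adjusted p = 0.110). DESeq2 called 1 member, ITGB2 (−1.07, adjusted p = 0.00715), whose level in the combined depletion was below the sum of its rises upon the single depletions.

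**Figure D4:**
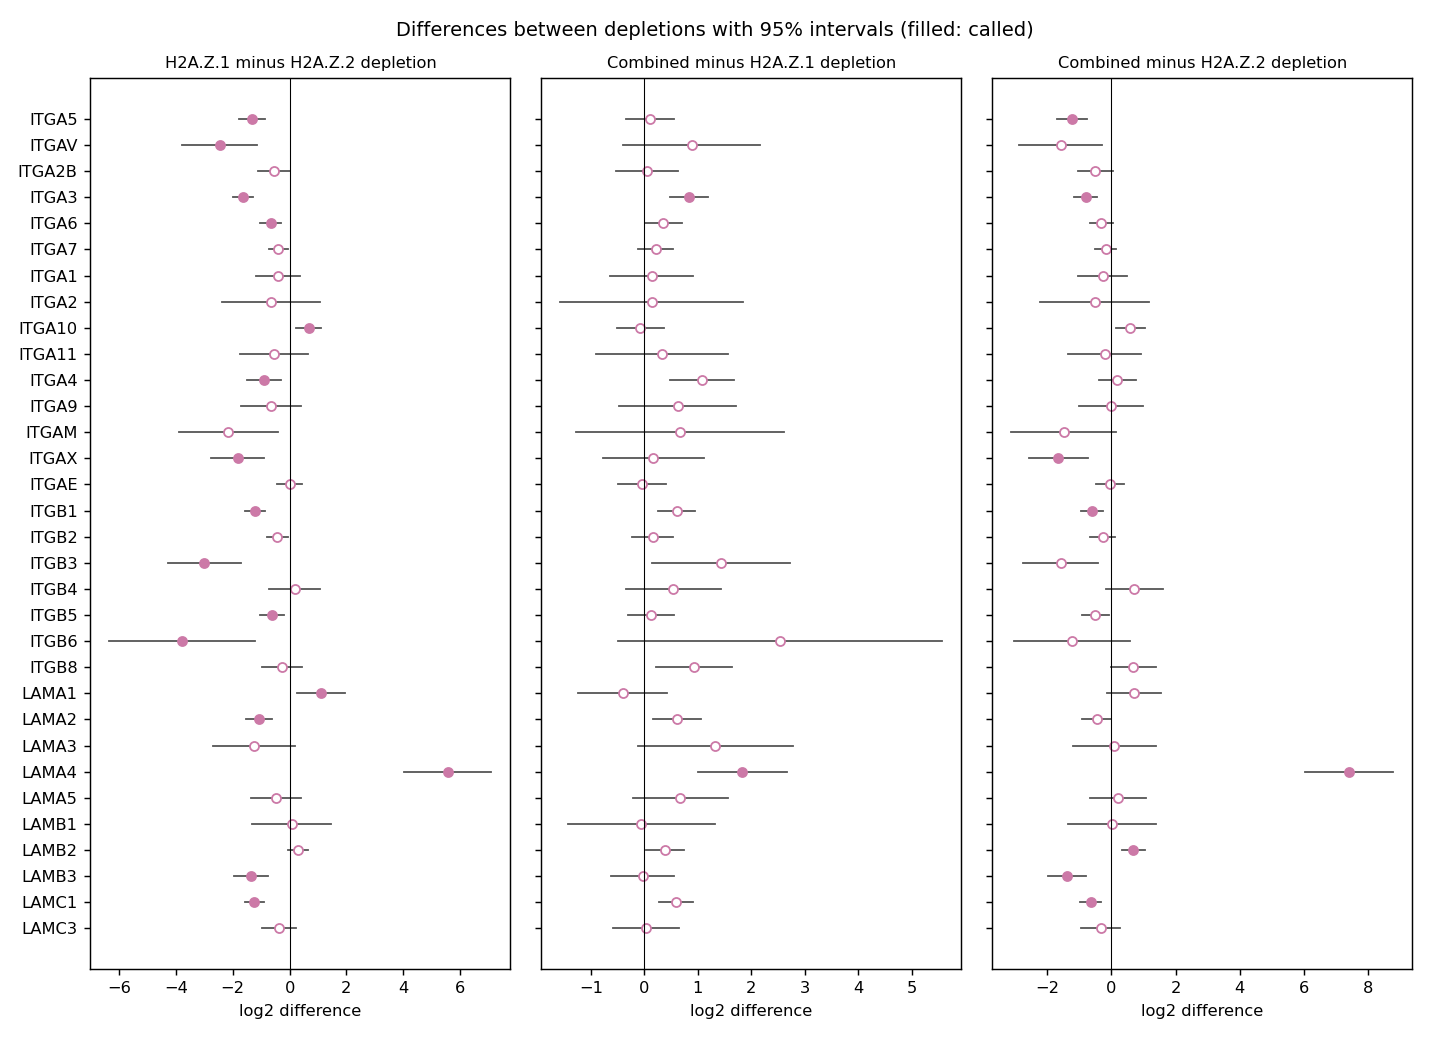
Log2 difference (x axis) with its 95% interval between pairs of depletions for members tested, with filled symbols for called members. Filled symbols lie mostly left of 0 for H2A.Z.1 minus H2A.Z.2 depletion and for combined minus H2A.Z.2 depletion, and only ITGA3 and LAMA4 are filled for combined minus H2A.Z.1 depletion.

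The comparison with each control siRNA separately shows which members depend on the choice of control. Upon each of the 3 depletions ITGA2 and LAMB1 lay between the levels of the 2 control siRNAs, so that their direction turned with the control. Against the pooled controls, the H2A.Z.1 change of ITGA2 was −0.85 (95% interval −2.69 to 1.00) and that of LAMB1 −0.00 (−1.44 to 1.44) on the log2 scale. In CPM, the ITGA2 libraries held 235 and 241 (H2A.Z.1 depletion), 384 and 368 (H2A.Z.2 depletion) and 269 and 255 (combined depletion). LAMB1 had 191 to 203 CPM in all 6 depleted libraries, a narrower range than that between the control siRNAs. For ITGA5, ITGAX, LAMB3, ITGB2 and LAMA4 the direction upon H2A.Z.1 and combined depletion was the same with either control siRNA, although the size of the ITGAX change upon H2A.Z.1 depletion ranged from −1.53 (siCtrl 3) to −2.59 (siCtrl 4).

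**Figure D5:**
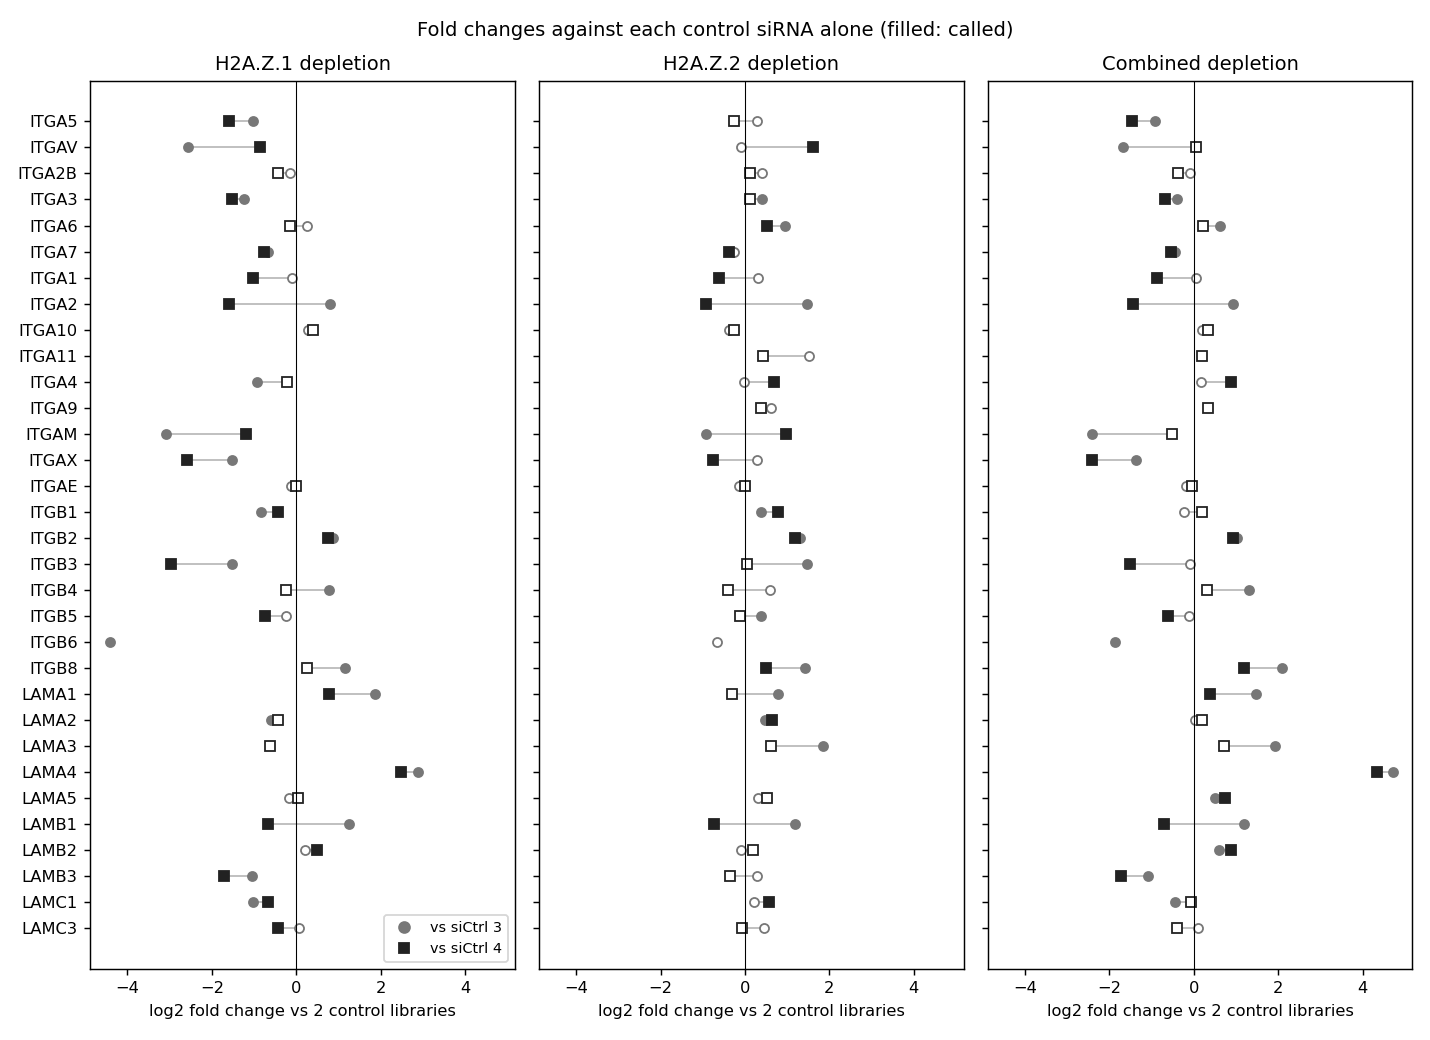
Log2 fold change (x axis) of members against siCtrl 3 alone (circles) and siCtrl 4 alone (squares) for the 3 depletions, joined by a line where both were tested, with filled symbols for called members. The lines of ITGA2 and LAMB1 cross 0 in all 3 panels with both ends filled, while those of ITGA5 and LAMB3 stay left of 0 upon H2A.Z.1 and combined depletion.

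The members below gave no edgeR call in a depletion against the pooled controls, and DESeq2 called LAMA2 as higher upon H2A.Z.2 depletion (0.53, adjusted p = 0.0244). ITGA1 (8.16 to 19.4 CPM over all libraries), ITGA2B (1.44 to 2.24), ITGA10 (2.36 to 4.37), ITGAE (6.83 to 10.4), ITGB5 (251 to 473), LAMA2 (6.08 to 16.8) and LAMC3 (14.6 to 25.1 CPM) had log2 fold changes between −0.63 and 0.55 in the 3 depletions. Upon H2A.Z.1 depletion the 95% interval excluded 0 for ITGB5 (−0.53, −0.98 to −0.07) and LAMA2 (−0.53, −1.02 to −0.04). For LAMA2 it also did upon H2A.Z.2 depletion (0.55, 0.25 to 0.86). ITGA4, a subunit of the VCAM1 receptor, had 10.7 and 9.87 CPM upon H2A.Z.1 depletion and at least 21.8 CPM in both libraries of the combined depletion, a difference that edgeR did not call (log2 difference 1.09, adjusted p = 0.0575) and DESeq2 did (adjusted p = 0.0047). ITGB4 had 4.92 to 13.1 CPM and was highest upon combined depletion, without passing the test (log2 fold change 0.73, 95% interval −0.11 to 1.57). LAMA3 had log2 fold changes of 1.11 (95% interval −0.15 to 2.37) upon H2A.Z.2 depletion and 1.20 (−0.07 to 2.48) upon combined depletion. ITGA9 (0.358 to 0.918 CPM) and ITGA11 (0.156 to 0.720 CPM) were near the limit of testing, and ITGAD, ITGB7 and LAMB4, with 23, 43 and 20 counts over all libraries, were not tested.

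The summed reads of all 38 members were 0.457% and 0.454% of all counts with siCtrl 3, 0.554% and 0.550% with siCtrl 4, and 0.369% and 0.362% in the H2A.Z.1-depleted libraries. The H2A.Z.2-depleted libraries had 0.604% and 0.585%, and those with both siRNAs 0.452% and 0.479%. Both H2A.Z.1 libraries were thus below and both H2A.Z.2 libraries above all controls, while the combined depletion overlapped them. ITGB1 and ITGA3 had the most reads of all members, with 165782 and 162439 counts over the 10 libraries.

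Genes that work with integrins and laminins were counted in full from lists chosen with earlier results known. Of 30 genes of the integrin adhesion plaque, which links integrin tails to actin, 12 fell and 3 rose upon H2A.Z.1 depletion (15.7% and 12.2% of all genes did; median log2 fold change −0.53). Of the same 30, 15 differed between the control siRNAs, 12 of them higher with siCtrl 4 (17.2% of all genes) and 3 lower (17.3%). Among them were the actin crosslinkers FLNA (−1.74) and FLNC (−1.62), the kindlin FERMT1 (−1.80), and TNS4, a tensin, which rose by 2.67. Upon combined depletion 7 fell and 3 rose (9.35% and 7.77% of all genes did; median −0.23), with TNS4 at 1.79, FERMT1 at −1.25 and FLNC at −1.09. Upon H2A.Z.2 depletion edgeR called 0, DESeq2 1 higher and 1 lower, and 4 had an unadjusted p under 0.05.

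The same shares of all genes stand behind the counts that follow. Between the control siRNAs, 34.5% of all genes tested differed. Of the lists, 6 of 10 ligands, 5 of 14 basement membrane partners, 5 of 7 receptors and 3 of 7 membrane partners did. Of 10 tested integrin ligands other than laminins, 3 fell upon H2A.Z.1 depletion, the secreted adhesion protein TGFBI (−2.86), the matrix glycoprotein TNC (−1.10) and CYR61 (−0.75), and THBS1 rose upon H2A.Z.2 depletion (0.69), where edgeR called 1 (0.605% of all genes) and DESeq2 4 as higher. Upon combined depletion TGFBI fell (−1.56) and FBN1 (0.60), THBS1 (0.54) and CTGF (0.51) rose. Of 14 basement membrane partners of laminins, the heparan sulfate proteoglycan perlecan gene HSPG2 (−1.61) and the netrin NTN4 (−1.20) fell and the type IV collagen gene COL4A3 rose (2.60) upon H2A.Z.1 depletion. COL4A1 rose upon H2A.Z.2 depletion (0.82; edgeR called 1 and DESeq2 3 as higher), and upon combined depletion COL4A3 (2.36), COL4A4 (1.39) and COL4A5 (0.64) rose while HSPG2 fell (−0.67).

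Of 7 non-integrin laminin receptors, BCAM rose (0.79) and the syndecans SDC1 (−0.76) and SDC4 (−0.73) fell upon H2A.Z.1 depletion, and SDC2 (1.68) and BCAM (1.02) rose upon combined depletion. Upon H2A.Z.2 depletion edgeR called 0 of them, DESeq2 called SDC2 (0.99, adjusted p = 0.000619), and 3 had an unadjusted p under 0.05. Of 7 membrane partners of integrins, the tetraspanins CD82 (−1.90) and CD151 (−0.60) fell and SLC3A2 rose (0.60) upon H2A.Z.1 depletion, and CD82 fell upon combined depletion (−1.69). Upon H2A.Z.2 depletion both tools called 0 of these 7, and 1 had an unadjusted p under 0.05.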

How the data were processed

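Total RNA depleted of rRNA from 10 libraries was sequenced with a strand-specific protocol. The authors aligned reads to hg38 with STAR and counted them per RefSeq gene with HTSeq 0.6.1 in strand-specific mode, and the deposited table holds raw counts for 23089 genes (16716990 to 26946836 per library). The authors' 3 tables of DESeq2 1.22.1 results hold their own comparisons and were not used.

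Samples were grouped by their labels. Depleted and control libraries (2 against 4) were tested with edgeR 4.0.16 (R 4.3.3) with TMM scaling, filterByExpr and the two-sided quasi-likelihood F test. Adjusted p-values are Benjamini-Hochberg values over all genes tested, and a gene was called at an adjusted p under 0.05 and a fold above 1.25 (non-additive effects without a fold threshold). SE is the absolute log2 fold change over the square root of F. Contrasts between depletions and the non-additive test come from 1 fit of 10 libraries in 4 groups, and siCtrl 4 against siCtrl 3 from 1 fit in 5 groups. Counting intervals are exact and cover counting error only. The fit was tested on simulated data with the same spread setting for all genes. No difference between control siRNAs was simulated, so that test does not cover it. The members, the partner lists and their tests were chosen with earlier results of these data known. Counts cover all members and list genes, of which a few, 1 member among them, are not reported here by name. The rule for named genes was as follows: members called in a depletion with each library's value, the others with 20 or more counts by level, range and fold change, and from each partner list up to 4 called genes with the largest change per depletion. Replicates of every group differed by more than sampling noise (chi-square per degree of freedom 4.89 to 15.7). All 38 members matched GENCODE v44 on hg38. Alternatives were DESeq2 1.42.0, other scalings, no low-count filter, single control siRNAs, a replicate block, the control siRNAs as separate groups in direct contrasts (chosen after seeing the data) and leaving out each library.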

Additional observations from a re-analysis of the deposited data

How the results depend on the processing

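Depth limits the members with few counts (ITGB6, LAMA4, ITGA9, ITGA11, ITGAD, ITGB7, LAMB4), for which 3 counts in a library are 0.114 to 0.172 CPM, and 2 libraries per depletion limit every call. The 24 calls of members in the 3 depletions kept their direction in all 333 refits that gave a value, and 262 of these kept the call. With siCtrl 3 alone as control, 21 members were called upon H2A.Z.1 depletion (13 against the pooled controls), 14 upon H2A.Z.2 depletion (1) and 21 upon combined depletion (10), and with siCtrl 4 alone 20, 15 and 18. Requiring a call in the same direction against both, a criterion chosen after seeing the data, gave 5 upon H2A.Z.2 depletion. DESeq2 called 3 upon H2A.Z.2 depletion, 5 for combined against H2A.Z.1 depletion (edgeR 2) and 1 non-additive effect (edgeR 0). The sign changed together with a call as higher against siCtrl 3 alone for ITGA2 (0.80, 1.46 and 0.94 upon H2A.Z.1, H2A.Z.2 and combined depletion) and LAMB1 (1.25, 1.18 and 1.20), and against siCtrl 4 alone upon H2A.Z.2 depletion for ITGAM (0.97). The cause was not tested beyond the difference between the control siRNAs given above.

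Leaving out 1 library gave 1 to 15 members upon H2A.Z.1 depletion, 0 to 0 upon H2A.Z.2 depletion, 1 to 10 upon combined depletion, 9 to 19 for H2A.Z.1 against H2A.Z.2 depletion (17 with all libraries), 0 to 5 for combined against H2A.Z.1 depletion, and 1 to 10 for combined against H2A.Z.2 depletion (9). Except upon H2A.Z.2 depletion, where every such count was 0, the lowest counts came from leaving out a depleted library, and a lone library was assumed to vary like the others. With the control siRNAs as separate groups, chosen after seeing the data, 13 members were called for combined against H2A.Z.1 depletion and 19 for combined against H2A.Z.2 depletion. With the replicate number as a block, 10 members were called upon H2A.Z.1 depletion (ITGB1, LAMA1 and ITGB6 lost, adjusted p = 0.0547, 0.0799 and 0.0841), 0 upon H2A.Z.2 depletion (ITGB2 lost, 0.116), 6 upon combined depletion (ITGA3, ITGA7 and ITGAX among those lost) and 1 for combined against H2A.Z.1 depletion, and the other counts stayed within 1.5 times. Deviations of libraries with the same number correlated between 0.145 and 0.430 for the 6 pairs of groups without the combined depletion and between −0.405 and −0.112 for the 4 pairs with it, and no source says that a number marks a batch. Scaling by library size alone moved the all-gene median for H2A.Z.1 depletion from −0.02 to 0.08 (log2).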
